A study of Bos taurus with 20 samples.

Results

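The miR-17-92 cluster was examined in the spermatozoa of 20 Holstein-Friesian bulls, 10 of high fertility (HF) and 10 of low fertility (LF). Its members were taken by name from the deposited miRNA table and comprised bta-miR-17-5p, bta-miR-17-3p, bta-miR-18a, bta-miR-19a, bta-miR-19b, bta-miR-20a and bta-miR-92a. All 7 were present among the 1029 miRNAs listed. The fertility groups were set by the authors from an animal-adjusted statistical model of field fertility, and 1 small RNA library was made per bull from frozen-thawed semen. Straws from several ejaculates of a bull were pooled, and the sperm pellet was treated with a buffer that lyses somatic cells before RNA was extracted, so that each library averages several ejaculates. The labels give no agent, allele or age, and the only feature they give that differs between the groups is fertility.

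The cluster is a set of miRNA hairpins that are cut from a single primary transcript, and its members are known for promoting proliferation and survival in dividing cells, germline progenitors among them. Each mature miRNA silences mRNAs that pair with its seed, a short stretch near its 5′ end, and the members fall into 4 seed families: miR-17 (bta-miR-17-5p and bta-miR-20a), miR-18 (bta-miR-18a), miR-19 (bta-miR-19a and bta-miR-19b) and miR-92 (bta-miR-92a). Mature spermatozoa no longer transcribe, so the miRNAs measured in them were made earlier in spermatogenesis or taken up during transit through the epididymis.

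In the ARS-UCD2.0 annotation of the bovine genome, the 6 hairpin genes of the cluster lie next to each other on chromosome 12, in the order MIR17, MIR18A, MIR19A, MIR20A, MIR19B and MIR92A-1, with 0 other miRNA genes between them. Vertebrates carry related clusters, called paralogues here. The 6 genes of the miR-106a-363 cluster lie on chromosome X and include second copies of the hairpins for bta-miR-19b (MIR19B-2) and bta-miR-92a (MIR92A-2). Reads of these mature miRNAs from the 2 chromosomes cannot be told apart in the table. The 3 genes of the miR-106b-25 cluster, MIR106B, MIR93 and MIR25, lie on chromosome 25. The paralogues followed here were bta-miR-106a, bta-miR-18b, bta-miR-20b and bta-miR-363 of the first, bta-miR-106b, bta-miR-93 and bta-miR-25 of the second, and the lone relatives bta-miR-92b and bta-miR-32.

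The deposited values were normalized counts, that is reads scaled by library size (CPM) and corrected with a TMM factor by the authors. Reads recovered from them numbered 103204 to 3097581 per HF library (median 1092881) and 310186 to 1640178 per LF library (median 1085742). Of the normalized counts above 0, 95.02% were whole reads, within 0.1 read. The shallowest library, HF replicate 17, and the shallowest LF library, LF replicate 11, bear on the rare members, as a floor of 3 reads was a normalized count of 27.6 and 9.27 in them. The floor takes no account of PCR duplicates, so counting error is all it covers. Sperm markers were abundant in all 20 libraries, with the summed normalized count of bta-miR-34b, bta-miR-34c and bta-miR-449a, bta-miR-449b and bta-miR-449c at 32093 to 77203 in HF and 25829 to 54584 in LF bulls. The epithelial list of 7 miRNAs summed to 17050 to 24348 in HF and 17693 to 27773 in LF bulls, and the leucocyte list of 5 to 56.7 to 211 and 51.2 to 289. Bulk libraries cannot tell fewer cells of a type from less RNA per cell.

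Together the 7 members took 0.260% ± 0.0818 (SD, n = 20 bulls) of a library, from 0.151% to 0.464%. The summed normalized count of the cluster was 2532 ± 789 (SD, n = 10) in HF bulls, from 1691 in HF replicate 10 to 3626 in HF replicate 15. In LF bulls it was 2658 ± 775 (SD, n = 10), from 1526 in LF replicate 11 to 3739 in LF replicate 13. The groups overlapped over almost the whole range of the sum. The related miR-106b-25 cluster took more of a library, 0.750% on average, mostly through bta-miR-25.

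The members were counted at very unequal levels. For bta-miR-19b and bta-miR-92a, reads from the hairpins on chromosome X cannot be told apart from those of this cluster. How evenly library preparation captured different miRNAs was not tested, so the order is that of counted reads. On the normalized-count scale, where mature miRNAs need no division by length because a read stands for a whole molecule, bta-miR-20a ranked 68 of the 1029 miRNAs by mean level, bta-miR-19a 75, bta-miR-92a 83, bta-miR-19b 94 and bta-miR-17-5p 122, whereas bta-miR-17-3p ranked 298 and bta-miR-18a 307. In terms of the cluster sum, bta-miR-20a accounted for 30.1% ± 5.39 (SD, n = 20), bta-miR-19a for 25.9% ± 4.59, bta-miR-92a for 21.9% ± 8.28, bta-miR-19b for 14.5% ± 3.73 and bta-miR-17-5p for 6.72% ± 1.32. The other two, bta-miR-17-3p and bta-miR-18a, accounted for 0.479% ± 0.269 and 0.385% ± 0.204. The neighbours MIR17 and MIR18A therefore gave far fewer counted reads than MIR20A of the same transcript.

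Neighbours in this order were compared within each bull on the log2(normalized count + 1) scale by a two-sided sign-flip permutation test, with Benjamini-Hochberg adjustment over the 6 pairs. bta-miR-20a stood above bta-miR-19a by 0.22 ± 0.37 (SD, n = 20) on this scale, in 16 of 20 bulls (adjusted p = 0.025). bta-miR-19a and bta-miR-92a could not be separated, with a mean difference of 0.30 ± 0.74 and bta-miR-19a ahead in 14 bulls (adjusted p = 0.098). bta-miR-92a stood above bta-miR-19b by 0.55 ± 0.79 in 17 bulls (adjusted p = 0.012). The next steps were present in every bull: bta-miR-19b exceeded bta-miR-17-5p by 1.09 ± 0.53 and bta-miR-17-5p exceeded bta-miR-17-3p by 3.90 ± 0.96 (adjusted p = 3e-05 for both, from the smallest p these permutations can give). bta-miR-17-3p and bta-miR-18a did not differ beyond their spread (0.31 ± 1.06, bta-miR-17-3p ahead in 10 bulls, adjusted p = 0.21).

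**Figure D1:**
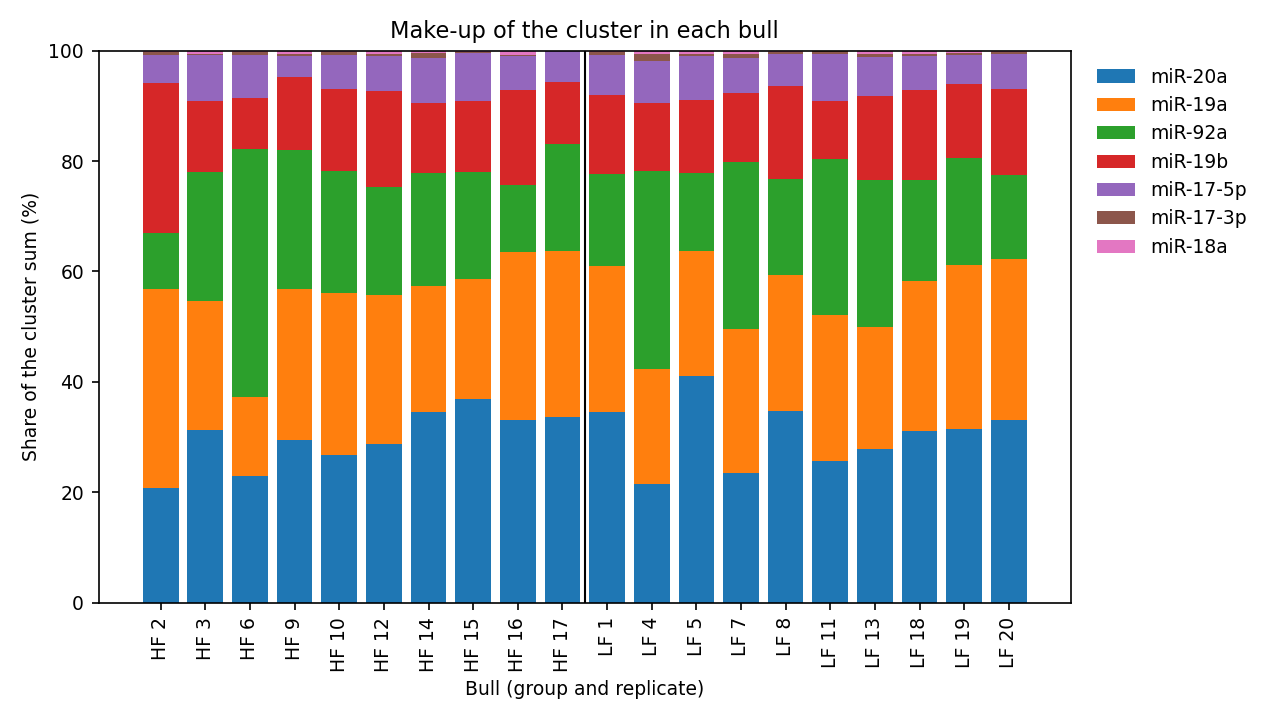
Share of each member (y axis, % of the summed normalized count of the 7 members) in each bull (x axis, HF left of the line and LF right of it). bta-miR-20a was the largest share in 14 bulls, bta-miR-92a in 4 and bta-miR-19a in 2, and bta-miR-92a ranged from 10.1% in HF replicate 2 to 44.9% in HF replicate 6.

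HF replicates 2 and 6 stood at opposite ends of the make-up of the cluster, through bta-miR-92a. bta-miR-20a was the most abundant member in 7 HF and 7 LF bulls. bta-miR-92a led in HF replicate 6 and in 3 LF bulls, and bta-miR-19a led in 2 HF bulls.

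The miR-17 seed family members of the cluster are bta-miR-20a and bta-miR-17-5p, both of which restrain cell-cycle inhibitors and related targets. bta-miR-20a lay between 411 and 1341 normalized counts in HF bulls (median 697, mean 758 ± 291, SD, n = 10). In LF bulls it lay between 392 and 1296 (median 906, mean 830 ± 330, SD, n = 10). The highest bull was HF replicate 15 and the lowest LF replicate 11. In all, 8 of 10 HF bulls had less than the median LF bull, and the ranges nearly coincided. In the limma fit over 435 miRNAs, the log2 fold change of bta-miR-20a, HF over LF, was -0.098 ± 0.25 (SE), with a 95% interval from -0.61 to 0.42 (p = 0.70).

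bta-miR-17-5p, the first hairpin's 5′ arm, ran from 85.0 to 315 normalized counts in HF bulls (median 157, mean 167 ± 68.9, SD, n = 10). In LF bulls it ran from 115 to 263 (median 161, mean 178 ± 51.8, SD, n = 10). The LF range lay inside the HF range, with HF replicate 9 lowest and HF replicate 15 highest. Its log2 fold change was -0.14 ± 0.22 (SE; 95% interval -0.60 to 0.32, p = 0.53).

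The miR-19 pair is known as the main oncogenic component of the cluster. bta-miR-19a ran from 259 to 1254 normalized counts in HF bulls (median 604, mean 678 ± 300.0, SD, n = 10) and from 402 to 1035 in LF bulls (median 736, mean 679 ± 215, SD, n = 10). The lowest and the highest bull were both HF, replicates 6 and 2, and the means of the groups were nearly equal. The log2 fold change of bta-miR-19a was -0.064 ± 0.24 (SE; 95% interval -0.57 to 0.44, p = 0.79).

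bta-miR-19b ran from 164 to 947 normalized counts in HF bulls (median 312, mean 399 ± 240, SD, n = 10). In LF bulls it ran from 161 to 568 (median 399, mean 383 ± 147, SD, n = 10). HF replicate 2 was the highest by far, and the other bulls of the groups overlapped. The log2 fold change was -0.036 ± 0.29 (SE; 95% interval -0.64 to 0.57, p = 0.90). For both miR-19 members, the sign of this small difference depended on the test and on single bulls.

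bta-miR-92a, the last hairpin's product and a miRNA known for integrin and vascular targets, ran from 349 to 806 normalized counts in HF bulls (median 493, mean 509 ± 164, SD, n = 10). In LF bulls it ran from 334 to 998 (median 543, mean 562 ± 181, SD, n = 10). LF replicate 13 was highest and LF replicate 1 lowest, so the HF range lay within the LF range. The log2 fold change was -0.15 ± 0.20 (SE; 95% interval -0.55 to 0.26, p = 0.45). It was the only member with values that were not whole reads, in 12 libraries.

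bta-miR-18a, the member of the miR-18 family, was rare. It ran from 0 to 23.5 normalized counts in HF bulls (median 8.68, mean 10.00 ± 6.76, SD, n = 10) and from 0 to 22.06 in LF bulls (median 9.97, mean 10.8 ± 6.70, SD, n = 10). The values at 0 were those of HF replicate 17 and LF replicate 11, the shallowest library of each group, where 0 reads allow up to the floors given above. Its log2 fold change was -0.12 ± 0.53 (SE; 95% interval -1.21 to 0.97, p = 0.82), the widest interval of the 7.

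bta-miR-17-3p, the passenger arm of the first hairpin, had the widest gap between the groups. It ran from 0 to 22.3 normalized counts in HF bulls (median 9.42, mean 9.73 ± 5.78, SD, n = 10), on 0 to 56 reads. In LF bulls it ran from 8.96 to 24.8 (median 11.9, mean 13.7 ± 5.05, SD, n = 10), on 3 to 25 reads. The ranges overlapped, while 8 of 10 HF bulls had less than the median LF bull. The log2 fold change was -0.69 ± 0.39 (SE; 95% interval -1.49 to 0.12, p = 0.091). The value at 0 was again that of HF replicate 17, and leaving this bull out gave -0.34 (p = 0.19). Without HF replicate 2, the highest HF bull, it was -0.84 (p = 0.039), the only one of the alternative fits run in which a member passed both thresholds (adjusted p = 0.97).

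**Figure D2:**
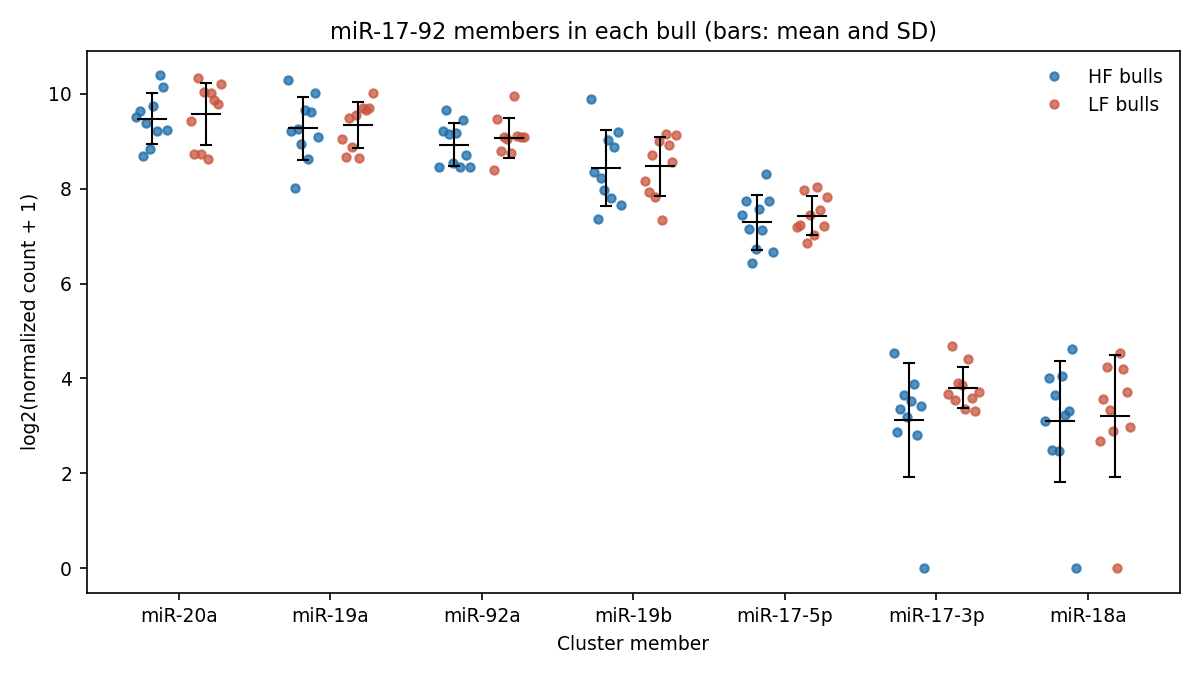
Level of each member, as log2(normalized count + 1) on the y axis, in each bull, with HF and LF bulls side by side and bars for the mean and SD (n = 10 per group). The clouds of HF and LF bulls overlapped for all 7 members, and the points at 0 are HF replicate 17 for bta-miR-17-3p and for bta-miR-18a and LF replicate 11 for bta-miR-18a.

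A miRNA was counted as called at an unadjusted p under 0.05 with a fold change over 1.5. None of the 7 members met this in the limma fit (0 of 7), beside a background of 9 of 435 miRNAs, 2.07%, of which 4 (0.92%) were higher and 5 (1.15%) lower in HF bulls. By p alone the count was again 0 of 7, beside 15 of 435 (3.45%). edgeR's quasi-likelihood and likelihood ratio tests and DESeq2, run on the recovered reads, also called 0 of the 7. Adjusted over all 435 miRNAs, the members' p-values ranged from 0.94 to 0.99, and the smallest among the 435 was 0.92. The median log2 fold change of the members was -0.12, against 0.0051 over all miRNAs tested. All 7 estimates were below 0, as were 217 of 435 (49.9%), but the members share bulls and were correlated with each other, and the sign of bta-miR-18a, bta-miR-19a and bta-miR-19b turned in the edgeR tests. The 95% intervals of bta-miR-17-5p, bta-miR-19a, bta-miR-20a and bta-miR-92a reached down to fold changes of 0.658, 0.674, 0.654 and 0.681 and up to 1.25, 1.36, 1.33 and 1.19, so differences within these bounds are not excluded by these data.

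None of the paralogues was called either. Of the 9, bta-miR-18b was below the filter on low counts, at 0 in 12 of 20 bulls. The other 8 had a median log2 fold change of -0.17, with 7 below 0, and 0 of 8 were called. bta-miR-93, which shares the miR-17 seed and lies in the miR-106b-25 cluster, was at 1060 ± 341 normalized counts in HF and 1000 ± 343 in LF bulls (log2 fold change 0.11 ± 0.22, SE, p = 0.62). bta-miR-25, which shares the miR-92 seed and was the most abundant relative, was at 5982 ± 2232 in HF and 6886 ± 1653 in LF bulls (-0.24 ± 0.19, SE, p = 0.22). bta-miR-92b had the widest estimate, at 50.8 ± 32.3 in HF and 68.2 ± 32.6 in LF bulls (-0.84 ± 0.59, SE, p = 0.17). It too was at 0 in HF replicate 17, and without that bull its log2 fold change was -0.27.

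**Figure D3:**
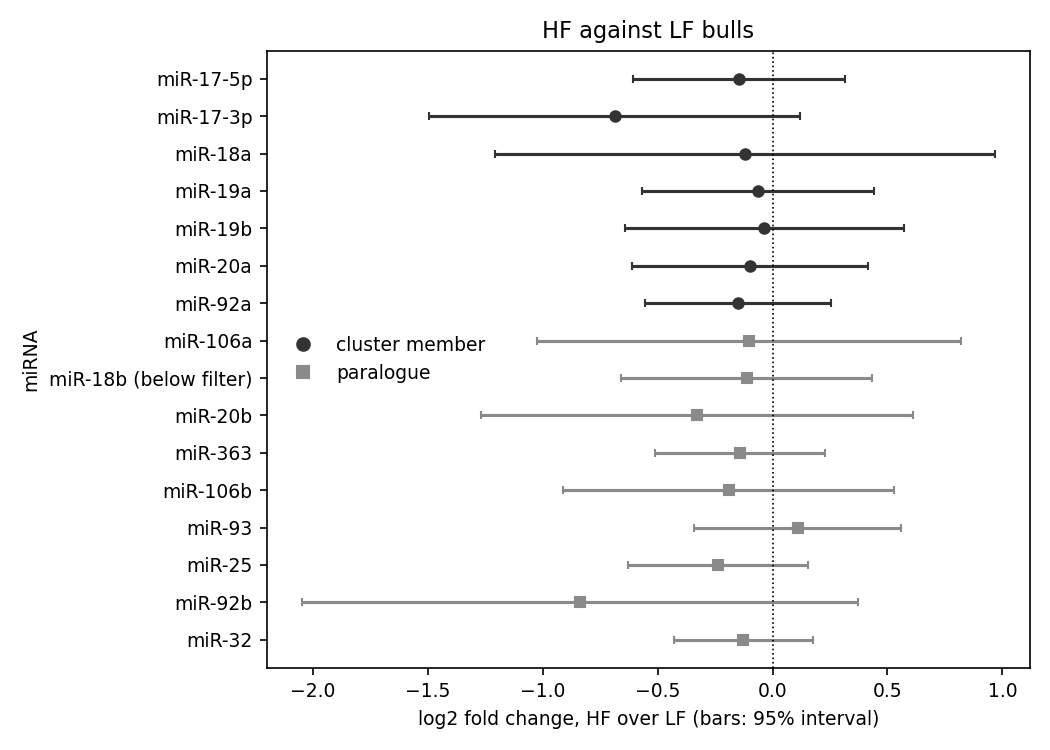
log2 fold change of the normalized count, HF over LF (x axis), for the 7 members (circles) and the 9 paralogues (squares), with bars for the 95% interval of the limma fit. Every interval includes 0, and bta-miR-93 alone has an estimate above 0.

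Since miRNAs of a seed family can act on the same targets, the share of the cluster's mature miRNAs in each family was computed from summed normalized counts. For bta-miR-92a this share holds reads from both of its hairpins, which cannot be told apart. bta-miR-17-5p and bta-miR-20a made up 46.3% ± 4.53 (SD, n = 20) of the miR-17 family, close to the 49.9% ± 4.99 of bta-miR-93 alone, with 3.29% from bta-miR-106b. In the miR-92 family, by contrast, bta-miR-92a was a small part, 6.00%, below bta-miR-25 at 68.7% and bta-miR-32 at 23.2%. bta-miR-18a made up 95.7% of the miR-18 family, as bta-miR-18b was nearly absent.

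The balance of the arms of the first hairpin was examined as the log2 ratio of bta-miR-17-5p to bta-miR-17-3p, each with 1 added. It was 4.17 ± 1.22 (SD, n = 10) in HF bulls, from 2.77 to 6.67, and 3.63 ± 0.55 (SD, n = 10) in LF bulls, from 2.54 to 4.43. The difference of 0.54 was within the spread of the bulls (p = 0.22, two-sided permutation test) and was 0.26 without HF replicate 17. Over all bulls, 284 of 4298 reads of the hairpin, 6.61%, came from the 3p arm.

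The second question concerned how the members varied together across bulls. The values of bta-miR-19b and bta-miR-92a cannot be split between this transcript and their hairpins on chromosome X. For the 21 pairs, Pearson's r of log2(normalized count + 1) had a median of 0.44, against 0.017 over the 94395 pairs of all miRNAs tested, given as a description. Over all pairs of tested miRNAs the quartiles of r were -0.20 and 0.24, and the share of them called was not computed. With permutation p-values and Benjamini-Hochberg adjustment over the 21 pairs, 9 of the member pairs were called. bta-miR-17-5p, bta-miR-19a, bta-miR-19b and bta-miR-20a, grouped here after their correlations were seen, accounted for 6 of these. The other 3 were bta-miR-18a with bta-miR-17-5p, bta-miR-19b and bta-miR-20a.

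bta-miR-19a and bta-miR-19b, which share a seed, formed the closest pair (r = 0.94, rho = 0.93, adjusted permutation p = 0.00021 for r, n = 20). Within HF bulls r was 0.94 and within LF bulls 0.93, and it was 0.93 without the 2 bulls farthest from the median of bta-miR-19a. bta-miR-20a followed bta-miR-19a (r = 0.79, rho = 0.78, without 2 bulls 0.88), bta-miR-19b (r = 0.78, rho = 0.80, without 2 bulls 0.88) and bta-miR-17-5p (r = 0.77, rho = 0.80, without 2 bulls 0.81), with adjusted permutation p of at most 0.00063. bta-miR-17-5p was less close to bta-miR-19b (r = 0.64, rho = 0.72, adjusted permutation p = 0.010) and bta-miR-19a (r = 0.53, rho = 0.60, adjusted permutation p = 0.043). Over these 6 pairs r lay between 0.43 and 0.94 within HF bulls and between 0.72 and 0.93 within LF bulls. The pair of bta-miR-17-5p and bta-miR-19a was the weakest, and its adjusted p rose above 0.05 in 11 of the 20 fits that left out a bull.

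bta-miR-92a had low correlations with the other abundant members, and 0 of these 4 pairs were called. Its r with bta-miR-17-5p, bta-miR-19a, bta-miR-19b and bta-miR-20a lay between -0.067 and 0.38, and its rho between -0.0075 and 0.37, with adjusted permutation p from 0.16 to 0.82. Without the TMM factor, its r with bta-miR-17-5p was 0.50 and was called (adjusted permutation p = 0.045). Its level rested on a median of 587 reads per library, against 774.5 for bta-miR-20a, 623 for bta-miR-19a, 354.5 for bta-miR-19b and 174 for bta-miR-17-5p. The within-bull ratio of bta-miR-92a to bta-miR-19a, chosen after seeing the data, ran from 0.279 in HF replicate 2 to 3.11 in HF replicate 6. Its SD over bulls was 0.74 on the log2 scale, against 0.11 from counting error alone. The ratio of bta-miR-19b to bta-miR-19a was far steadier, from 0.373 to 0.755, with an SD of 0.26 against 0.13 from counting. Between these lay the ratios of bta-miR-19a and bta-miR-17-5p to bta-miR-20a, with SDs of 0.37 and 0.38. None of 5 such ratios differed between HF and LF bulls (two-sided permutation tests, adjusted p = 0.87 for each), with HF minus LF differences of -0.085 to 0.033 on the log2 scale.

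**Figure D4:**
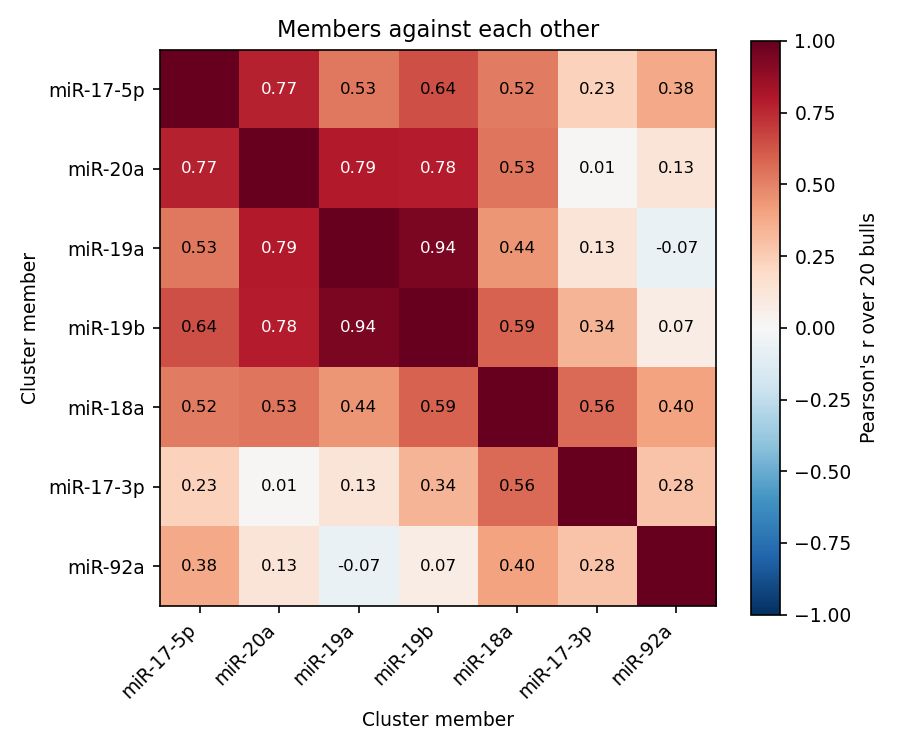
Pearson's r of log2(normalized count + 1) over the 20 bulls for each pair of members (both axes), from -1 in blue to 1 in red. A block of high values joins bta-miR-17-5p, bta-miR-20a, bta-miR-19a and bta-miR-19b, from 0.53 to 0.94, and bta-miR-92a is pale against them, from -0.07 to 0.38.

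Part of the variation of the rare members, and of bta-miR-19b, moved with depth. With the log10 library total, r was 0.61 for bta-miR-17-3p, 0.58 for bta-miR-18a and 0.53 for bta-miR-19b (adjusted permutation p = 0.046 for each, over 7 relations, n = 20), while rho was 0.15, 0.13 and 0.51. Without the 2 bulls farthest from the median of the member, these r were 0.11, -0.20 and 0.34. The relations of bta-miR-17-3p and bta-miR-18a thus rest on those bulls, while that of bta-miR-19b fell less. For bta-miR-17-5p, bta-miR-19a, bta-miR-20a and bta-miR-92a r lay between -0.16 and 0.38 and was not called, but without HF replicate 17 and LF replicate 11 bta-miR-92a was called at r = -0.72 (adjusted permutation p = 0.0050). Without the same 2 libraries, r among bta-miR-17-5p, bta-miR-19a, bta-miR-19b and bta-miR-20a lay between 0.51 and 0.96, with the pair of bta-miR-17-5p and bta-miR-19a no longer called, whereas bta-miR-18a with bta-miR-17-5p, bta-miR-19b and bta-miR-20a fell to 0.45, 0.42 and 0.50 and lost its calls.

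The same 4 members also moved with bta-miR-106b and bta-miR-93 of the miR-106b-25 cluster. These relations are among 63 member and paralogue pairs computed after seeing the data, of which 13 were called. The share called over all pairs of tested miRNAs was not computed. With bta-miR-106b their r lay between 0.76 and 0.86 (rho 0.69 to 0.90, adjusted permutation p at most 0.0012). With bta-miR-93 it lay between 0.62 and 0.87 (rho 0.66 to 0.85, adjusted permutation p at most 0.024). Without the 2 bulls farthest from the median the values were 0.77 to 0.84 and 0.64 to 0.82. bta-miR-25, cut from the same transcript as these paralogues, had r of 0.13 to 0.21 with the 4 members and was not called. The difference between these r values was not tested. In the miR-106a-363 cluster, bta-miR-20b had r of 0.49 to 0.57 with the 4 members (rho 0.53 to 0.60), and 1 of these pairs was called. bta-miR-363, also of the miR-92 family, had r of 0.22 to 0.57 with the 4 members, with 1 pair called. bta-miR-106a was called with the rare bta-miR-18a and bta-miR-17-3p (r = 0.79 and 0.66, adjusted permutation p = 0.0042 and 0.020). Without the 2 bulls farthest from the median of the member, these r were 0.31 and 0.48. bta-miR-92a itself was called with bta-miR-92b only (r = 0.60, rho = 0.68, adjusted permutation p = 0.022, without 2 bulls 0.58), and its r with bta-miR-25 was 0.16 and with bta-miR-32 0.35.

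Marker lists of other cell types were set beside these levels, in 28 relations chosen after seeing the data. The summed leucocyte list (bta-miR-142-5p, bta-miR-142-3p, bta-miR-150, bta-miR-155 and bta-miR-223) moved with bta-miR-20a at r = 0.90 and rho = 0.91 (adjusted permutation p = 0.00028, n = 20), at 0.88 within HF and 0.91 within LF bulls. With bta-miR-17-5p, bta-miR-19a and bta-miR-19b its r was 0.72, 0.74 and 0.72 (adjusted permutation p at most 0.0020, rho 0.74 to 0.80). With bta-miR-92a r was 0.098 (adjusted permutation p = 0.94). Without the 2 farthest bulls, r of the first 4 lay between 0.72 and 0.88.

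Within that list a single marker carried most of the sum. bta-miR-142-5p was at 92.6 ± 59.0 normalized counts (SD, n = 20) and followed bta-miR-20a at r = 0.81 (rho = 0.87, adjusted permutation p = 0.00050 over 25 relations). bta-miR-150, a lymphocyte marker at 21.1 ± 15.5, had r = 0.56 with bta-miR-20a (adjusted permutation p = 0.048). bta-miR-155, at 10.5 ± 5.82, and the myeloid marker bta-miR-223, at 2.02 ± 1.84 and 0 in 4 bulls, had r of 0.11 and -0.23. Neither was called. bta-miR-142-3p, at 2.60 ± 3.51 with 0 reads in 6 bulls, had r = 0.47 with bta-miR-20a and was not called (adjusted permutation p = 0.10). Both bta-miR-142-3p and bta-miR-223 had a median of 2 reads. The methods include somatic cell lysis and an RT-PCR check of the RNA for the leucocyte gene PTPRC. The paper reports that PTPRC did not amplify in the sperm RNA, and the data of that check were not analysed here. The part of leucocyte RNA in the members' levels was not tested.

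The sperm list moved with some of the same members. Its r was 0.78 with bta-miR-19a, 0.77 with bta-miR-19b and 0.61 with bta-miR-20a (rho 0.72, 0.69 and 0.69, adjusted permutation p at most 0.016), and 0.35 with bta-miR-17-5p (adjusted permutation p = 0.28). Without the 2 farthest bulls these were 0.70, 0.62, 0.44 and 0.34. The epithelial list had r of -0.16 to 0.044 with the same 4 members and the erythrocyte list 0.0057 to 0.22, and neither was called. By r over all 20 bulls, bta-miR-19a and bta-miR-19b were about as close to the sperm list as to the leucocyte list. Without the 2 farthest bulls, their r with the leucocyte list was 0.81 and 0.84, above that with the sperm list. bta-miR-20a was closer to the leucocyte list. None of these differences was tested. bta-miR-34c carried most of the sperm sum, at 35782 ± 8657 normalized counts (SD, n = 20).

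**Figure D5:**
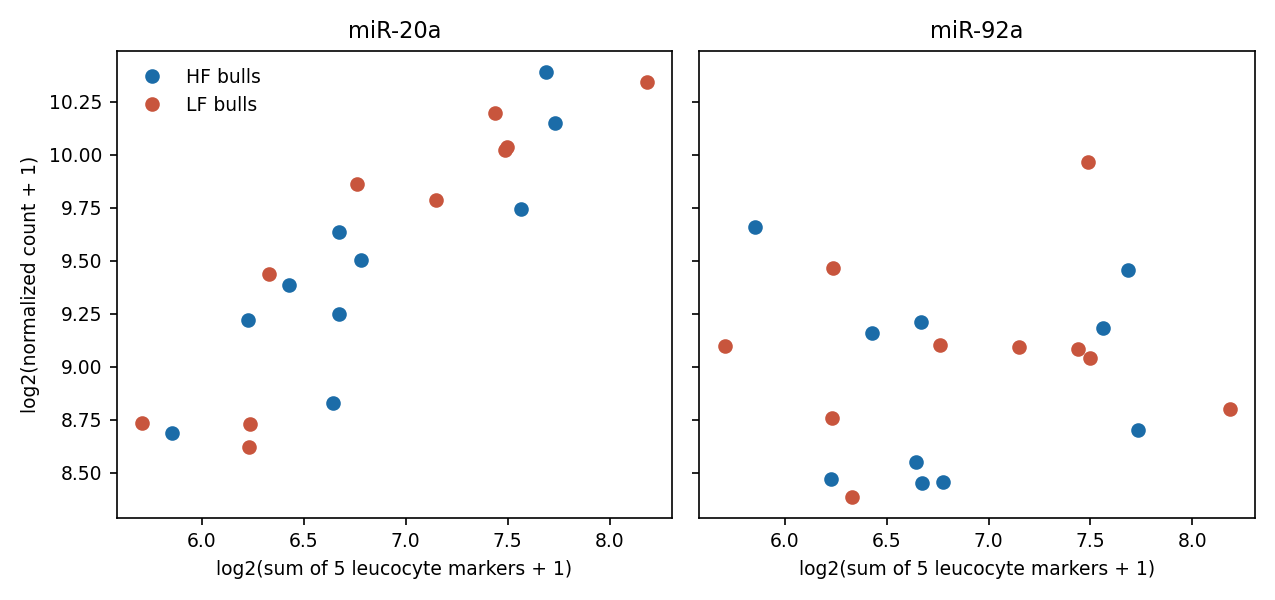
Level of bta-miR-20a (left) and bta-miR-92a (right), as log2(normalized count + 1) on the y axis, against log2 of the summed leucocyte markers + 1 (x axis) in HF and LF bulls. The points of bta-miR-20a lie along a rising band in both groups (r = 0.90, n = 20) and those of bta-miR-92a are scattered (r = 0.098).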

How the data were processed

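Small RNA libraries from 20 bulls were used, grouped by the labels. The authors removed adapters with Cutadapt, kept reads of 15 to 28 bases, filtered other short RNA species and counted the rest on mature bovine miRNAs of miRBase with miRDeep2 and the ARS-UCD1.2 genome. The deposited values are a signal per miRNA, counts that the authors converted to CPM and corrected with a TMM factor. Reads were recovered by dividing by the commonest low value of each library, which left a fractional value somewhere in 44 miRNAs. HF replicate 6 also held a value below that of 1 read.

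The design assumed the labels' groups and no covariates. A miRNA was tested unless 10 or more of the 20 bulls had a normalized count below 1, and 435 were tested. limma (version 3.58.1, variance trend, R 4.3.3) was run on log2(normalized count + 1) with Benjamini-Hochberg adjustment over 435. Alternatives on the recovered reads used edgeR (version 4.0.16) and DESeq2 (version 1.42.0). Single values and correlations used permutation tests with 100000 resamples (numpy 2.4.6, scipy 1.17.1). On simulated data, limma recovered 145 of 200 miRNAs changed 2-fold, 74 of 200 changed 1.5-fold, and called 12 of 435 when 0 were changed. A call needed an unadjusted p under 0.05 and an estimate over 1.5-fold, a cutoff that true 1.5-fold changes can miss. The simulated miRNAs were drawn independently of each other, unlike the correlated miRNAs measured here.

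Named are all members, all listed paralogues, marker lists, and the 5 other miRNAs with the highest r with the mean log2 level of the members. The members, paralogues and lists were chosen with earlier results of these data known. No column was unused (0). The AI centre of a bull and the mRNA libraries were not analysed here. P-values set a difference or a correlation against the spread between bulls.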

Additional observations from a re-analysis of the deposited data

Results flagged for a closer look

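In 36 groups of 10 bulls, from the members, the paralogues, the cluster sum and the arm ratio in each fertility group, the gap of an extreme bull to its nearest neighbour was set against the whole range (Dixon's ratio, at its 95% critical value). This flagged 2 groups, where chance gives 1.8, and 0 of them was a member of the cluster. bta-miR-106a, the paralogue of bta-miR-17-5p on chromosome X, stood at 16.5 normalized counts in LF replicate 13, on 9 reads, while the other LF bulls were at 0 to 6.03. bta-miR-25 stood at 11318 normalized counts in HF replicate 12, on 21649 reads, while the other HF bulls were at 3511 to 7334.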

How the results depend on the processing

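Over all alternatives that kept all bulls or left out the shallowest library of each group, 256 recomputed values kept their direction and their side of the threshold, 13 reversed, 13 lost a call, 3 gained one and 3 counts moved. The number of miRNAs called, 9, was 4 with a pseudocount of 5, 15 with no filter and 4 when a normalized count of 1 was required in every bull, which changes how many are tested. It ran from 7 to 15 with a bull left out, above 1.5 times the reported number without HF replicate 6, LF replicate 1, LF replicate 11 or LF replicate 13. The sign of 3 members turned. bta-miR-18a had a log2 fold change of 0.0078 and 0.0073 in edgeR's quasi-likelihood and likelihood ratio tests, bta-miR-19a 0.043 and 0.042, and bta-miR-19b 0.11 and 0.11, with 0.052 in DESeq2. With each bull left out, the log2 fold change ran from -0.84 to -0.34 for bta-miR-17-3p, -0.48 to 0.23 for bta-miR-18a, -0.18 to 0.075 for bta-miR-19a, -0.20 to 0.084 for bta-miR-19b and -0.37 to 0.16 for bta-miR-106a. The log2 difference of bta-miR-19a and bta-miR-92a ran from 0.22 to 0.41 and was called without HF replicate 6 or LF replicate 4.

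Correlations with a rare member were the least stable. With a pseudocount of 0.5, r of bta-miR-17-5p and bta-miR-18a was 0.50 and no longer called. With a pseudocount of 5, r of bta-miR-17-3p and bta-miR-20a was -0.038, and r with the library total, 0.53 for bta-miR-17-3p, 0.46 for bta-miR-18a and 0.53 for bta-miR-19b, was not called. Without the TMM factor these were 0.54, 0.52 and 0.43 and not called, r of bta-miR-19a and bta-miR-92a was 0.035, and r of bta-miR-17-5p with bta-miR-92a (0.50) and of bta-miR-17-3p with bta-miR-18a (0.58) became called. Without HF replicate 17 and LF replicate 11, r turned to -0.13 for bta-miR-17-5p with bta-miR-17-3p, -0.25 for bta-miR-17-3p with bta-miR-20a, -0.078 for bta-miR-19b with bta-miR-92a and -0.20 for bta-miR-18a with the library total. Calls were then lost for bta-miR-17-5p with bta-miR-18a (0.45) and with bta-miR-19a (0.51), for bta-miR-18a with bta-miR-19b (0.42) and with bta-miR-20a (0.50), and for bta-miR-17-3p (0.00029) and bta-miR-19b (0.36) with the library total, while bta-miR-92a with the library total became called at -0.72.

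With each bull left out, r ran from -0.10 to 0.35 for bta-miR-17-5p with bta-miR-17-3p, 0.42 to 0.63 with bta-miR-18a and 0.499 to 0.58 with bta-miR-19a. It ran from 0.13 to 0.68 for bta-miR-17-3p with bta-miR-18a and from -0.17 to 0.12 with bta-miR-20a. For bta-miR-18a it ran from 0.49 to 0.68 with bta-miR-19b and from 0.42 to 0.59 with bta-miR-20a. For bta-miR-92a it ran from -0.18 to 0.15 with bta-miR-19a and from -0.059 to 0.26 with bta-miR-19b. With the library total it ran from 0.072 to 0.70 for bta-miR-17-3p, 0.29 to 0.68 for bta-miR-18a and 0.43 to 0.62 for bta-miR-19b. Apart from fewer bulls or miRNAs, the cause of these changes was not tested. No paired analysis of the groups was possible because HF and LF bulls are different animals.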

Other observations

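The miRNAs outside the cluster whose levels were most like it were found from Pearson's r, over the 20 bulls, between each of 428 miRNAs and the mean log2 level of the 7 members. These are descriptions without a test. The closest were bta-miR-135a (r = 0.87, at 107 ± 53.1 normalized counts, SD, n = 20), bta-miR-30c (r = 0.87, at 1393 ± 394), bta-miR-449b (r = 0.82, at 154 ± 73.3), bta-miR-26a (r = 0.81, at 2338 ± 605) and bta-miR-505 (r = 0.81, at 8.44 ± 4.62). bta-miR-449b is of the family that marks late male germ cells. By Spearman's rho, bta-miR-30c held place 2, bta-miR-449b place 7 and bta-miR-26a place 10, whereas bta-miR-135a and bta-miR-505 held places 21 and 27. Without HF replicate 17 and LF replicate 11, r was 0.84 for bta-miR-30c, 0.77 for bta-miR-26a, 0.72 for bta-miR-449b, 0.69 for bta-miR-135a and 0.52 for bta-miR-505. Among the paralogues, the order was led by bta-miR-106a (place 14), bta-miR-106b (place 18) and bta-miR-93 (place 23), while bta-miR-32 held place 200.

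Of the 20 markers, bta-miR-155 alone was called between HF and LF bulls (log2 fold change -0.998 ± 0.307, SE, limma adjusted p = 0.92). Over all tested miRNAs, 9 of 435 (2.07%) were called. bta-miR-144 was below the filter. By unadjusted limma p alone, bta-miR-429, bta-miR-200a and bta-miR-486 were also under 0.05, beside 15 of 435 (3.45%). Their log2 fold changes were -0.47, -0.28 and 0.57 (p = 0.014, 0.040 and 0.044, adjusted p = 0.94 for each). The r of bta-miR-155 with the 5 abundant members lay between 0.044 and 0.17.

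The spread between bulls of the same group, as an SD of log2(normalized count + 1), was 0.44 for bta-miR-92a, 0.50 for bta-miR-17-5p, 0.58 for bta-miR-19a, 0.60 for bta-miR-20a and 0.71 for bta-miR-19b. The median over the 435 miRNAs was 0.70. The SD of the rare members was larger, at 0.91 for bta-miR-17-3p and 1.28 for bta-miR-18a, with the libraries without a read included. Counting error alone gives 0.46 and 0.47, but only over the libraries that had reads of the member. The SD and the counting error of a rare member therefore cannot be compared directly.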
